A study of Rattus norvegicus with 30 samples.

Results

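The genes described here encode the proteins of the mitochondrial ribosome that carry the names Mrpl (large subunit) and Mrps (small subunit). They were taken as the probe sets with a single platform symbol that starts with Mrpl or Mrps followed by a digit, which gave 97 probe sets of 73 genes, 46 Mrpl and 27 Mrps genes, of 31042 probe sets and 14217 singly named genes in all. RNA was measured on arrays in cultured hepatocytes isolated from male Sprague Dawley rats, bought frozen, thawed and exposed from day 3 of culture. The 6 groups of 5 arrays were 1% DMSO alone (the vehicle), diisononyl phthalate (DINP) at 25 mM and DINP at 100 mM, each for 24 and for 48 h. The concentrations are given as the labels write them, and whether mM is the intended unit was not checked. DINP is a plasticiser, and in rodent liver it is known as a peroxisome proliferator. The labels describe the 5 wells of a group as independent cultures and do not say how many rats the cells came from, so p-values measure the spread between wells. In whole cultures, fewer cells of a type and less RNA per cell cannot be told apart.

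Mitochondria keep a small genome that encodes a handful of respiratory chain subunits together with the rRNAs and tRNAs needed to make them. The mitochondrial ribosome translates those few mRNAs, while all of its own proteins are encoded in the nucleus, made in the cytosol and imported. Some of the proteins descend from those of bacterial ribosomes and others are found in mitochondria alone. Hepatocytes are rich in mitochondria, and the transcription of nuclear genes for mitochondrial proteins is known to draw on NRF1, the ETS factor GABP, YY1 and the coactivator Ppargc1a.

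Promoter windows from RefSeq (build GRCr8), reaching from 250 bases before to 50 bases after the annotated start, were found for 59 of the 73 genes, in 61 windows. Those of 4 members that were higher in all 4 exposed groups are shown. They were picked because each window holds a motif associated with the factors above. Other members that were higher in all 4 lacked such motifs: the windows of Mrpl12 and Mrpl28 held none of those counted below. Each reads in the direction of the gene, and capitals mark AAGATGGC, the YY1 motif, in Mrps18a and Mrpl49, and GCGCATGC, the NRF1 core, in Mrpl44 and Mrpl22.
Mrps18a (chr9:22367331-22367630, minus strand): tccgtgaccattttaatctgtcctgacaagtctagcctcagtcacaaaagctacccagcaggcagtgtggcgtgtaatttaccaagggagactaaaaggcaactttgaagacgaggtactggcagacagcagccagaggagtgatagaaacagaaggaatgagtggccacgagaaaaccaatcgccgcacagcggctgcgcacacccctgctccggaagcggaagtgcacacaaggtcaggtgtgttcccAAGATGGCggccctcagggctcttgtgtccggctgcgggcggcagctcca
Mrpl44 (chr9:88554800-88555099, plus strand): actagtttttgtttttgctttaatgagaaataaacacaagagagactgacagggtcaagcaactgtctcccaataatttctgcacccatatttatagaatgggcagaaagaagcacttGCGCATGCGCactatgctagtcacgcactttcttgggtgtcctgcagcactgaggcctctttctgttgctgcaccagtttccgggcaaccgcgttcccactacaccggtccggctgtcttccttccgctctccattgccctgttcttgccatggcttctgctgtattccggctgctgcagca
Mrpl22 (chr10:42845660-42845959, plus strand): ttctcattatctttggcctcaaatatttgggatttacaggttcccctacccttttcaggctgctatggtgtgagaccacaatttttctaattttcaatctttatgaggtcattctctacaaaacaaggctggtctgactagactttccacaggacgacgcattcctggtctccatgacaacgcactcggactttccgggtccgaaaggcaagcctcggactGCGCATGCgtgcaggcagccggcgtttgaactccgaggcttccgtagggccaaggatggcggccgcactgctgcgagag
Mrpl49 (chr1:212779278-212779577, minus strand): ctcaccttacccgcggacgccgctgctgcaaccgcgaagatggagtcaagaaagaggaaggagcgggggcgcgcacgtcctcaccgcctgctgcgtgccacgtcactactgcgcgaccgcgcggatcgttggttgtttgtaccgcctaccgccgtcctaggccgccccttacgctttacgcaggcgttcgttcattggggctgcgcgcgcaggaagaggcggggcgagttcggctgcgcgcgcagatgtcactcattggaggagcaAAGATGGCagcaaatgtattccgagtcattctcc
In Mrpl44 the motif was met on both strands, so that 2 overlapping matches form the run in capitals. Over both strands, AAGATGGC or its reverse complement lay in 14 of the 61 member windows (23.0%) and in 3.17% of all 33469 windows. The NRF1 core lay in 5 member windows (8.2%, against 2.47% of all), the ETS motif CCGGAAGT in 8 (13.1%, against 3.81%) and the E-box CACGTG in 6 (9.84%, against 6.42%). A direct repeat of AGGTCA with 1 base between, the kind of site PPARs bind, was in none of the member windows. It lay in 0.0538% of all windows, too rare for its absence from 61 to tell anything about PPAR sites. Among the 24 members called in both scalings described next, the 20 with windows held the YY1 motif in 6, the NRF1 core in 3, the ETS motif in 3 and the E-box in 4. The other 41 windows held them in 8, 2, 5 and 2. A match in these windows is a description of the sequence and no measurement of binding.

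Values are log2(signal + 16), and a difference is the exposed mean minus the vehicle mean of the same time, ± limma's standard error, with 5 arrays in each group. Of the 97 probe sets, 89 were bright enough to be tested, and each of the 73 genes had at least 1 of them. The 8 that were not tested were further probe sets of Mrps26, Mrps24, Mrps15, Mrps18c, Mrps27, Mrpl37, Mrps2 and Mrps22. A gene is represented by its brightest probe set. Members were brighter than most probe sets, with a median mean level of 12.5 against 9.95 over all tested, and they varied less between wells, with a median within-group SD of 0.107 against 0.194. One array, vehicle 48 h replicate 1, stood apart: its median deviation of the members from their own means over 30 arrays was 0.113, where the other 4 vehicle arrays at 48 h lay between -0.095 and -0.053. Counts at 48 h are therefore given with and without it, and single members at 48 h with all arrays unless stated otherwise. It was singled out by the members' own high values, so leaving it out favours more rises with DINP at 48 h. Leaving it out also favours fewer rises of the vehicle with time.

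Exposure to DINP went with modestly higher levels of mitochondrial ribosomal protein transcripts at both doses and both times. "Called" means an adjusted p (limma, Benjamini-Hochberg over all 18625 tested probe sets) under 0.05. At 24 h, 20 of the 89 probe sets were called higher at 25 mM, 22.5% of the members where 5.85% of all tested probe sets were called higher. At 100 mM the count was 23, or 25.8%, against 5.55% of all tested. At 48 h, 15 were called higher at 25 mM (16.9%, against 7.41% of all tested) and 21 at 100 mM (23.6%, against 6.49%). No member was called lower in any of these 4 comparisons, in which 7.49%, 6.74%, 10.5% and 8.07% of all tested probe sets were called lower.

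The shifts were small for most members. The median difference of the 89 probe sets was 0.11 at 25 mM and 0.14 at 100 mM after 24 h, and 0.09 and 0.12 after 48 h. Over all tested probe sets the medians were -0.05, -0.05, -0.03 and -0.07. The difference lay above zero for 84, 79, 70 and 76 of the 89 in the same order, and for 61 of them in all 4 comparisons. A single probe set, the dimmer one of Mrpl40, lay below zero in all 4, between -0.24 and -0.11, and was called in none. The rises called at 24 h came from 19 and 22 genes and those at 48 h from 15 and 20, and 34 genes were called higher at least once. These were 35 probe sets, 39.3% of the members, where 10.3% of all tested probe sets were called higher at least once.

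**Figure D1:**
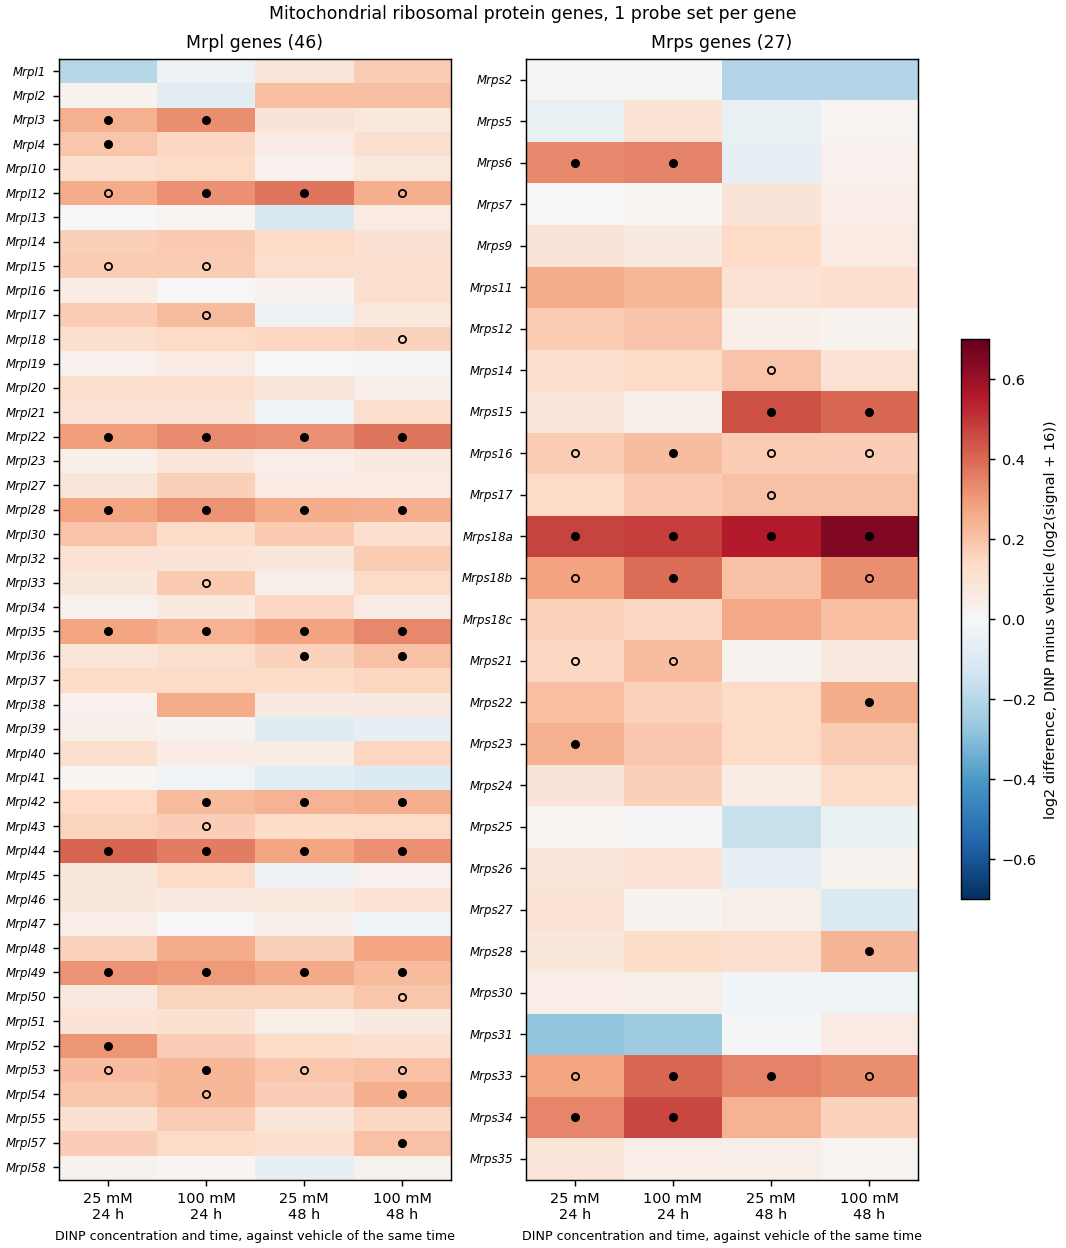
Log2 difference from the vehicle of the same time for the brightest probe set of each of the 73 genes (rows) in the 4 DINP groups (columns), with red higher and blue lower. Filled dots mark adjusted p under 0.05 both as deposited and after quantile normalisation, and open dots as deposited alone. Mrps18a is the darkest row, and no blue cell carries a dot.

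Because the shifts are small, they were recomputed after quantile normalisation, which gives all arrays the same distribution of values. The counts called higher became 14, 21, 12 and 17, against 6.3%, 5.87%, 8.13% and 6.78% of all tested probe sets. No member was called lower, against 6.61%, 5.64%, 9.41% and 6.34% of all. Of the members called higher as deposited, 13 of 20, 17 of 23, 11 of 15 and 14 of 21 were called again. Centring each array on its median gave 24, 29, 8 and 32 members higher and 0 lower, where 6.94%, 7.02%, 5.95% and 9.2% of all tested were higher. That centring raised the median difference of all tested probe sets at 100 mM and 48 h by 0.104, and took the share of higher among all calls from 43.9%, 45.1%, 41.4% and 44.6% to 65.2%, 70.8%, 40.6% and 75.1%. Relative to the median of all tested probe sets, the members' median stood 0.16, 0.193, 0.123 and 0.189 higher as deposited and 0.111, 0.133, 0.117 and 0.12 higher after quantile normalisation.

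Bright probe sets are called more readily, so the same counts were taken over the brightest 25% of the array, a choice made after seeing the data. There, 82 member probe sets were tested and 25, 24, 18 and 25 were called higher. This is 30.5%, 29.3%, 22.0% and 30.5% of them, against 13.8%, 13.5%, 15.8% and 15.6% of all 7761 probe sets in that range. At 25 mM and 48 h, 1 member was called lower in this range.

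Without vehicle 48 h replicate 1, 24 members were called higher at 25 mM and 48 h, where 7.48% of all tested were, and 28 at 100 mM and 48 h, where 6.71% were. All 15 members called with that array present at 25 mM were among the 24, and 20 of the 21 at 100 mM were among the 28. The median differences of the members were then 0.15 at both doses. Because that array was chosen by the members' own values, these higher counts and medians are no separate evidence of a rise. The same holds for every single member called only without it. Members that gained a call at 25 mM were Mrpl15, Mrpl37, Mrpl43, Mrpl50, Mrps7, Mrps18b, Mrps18c, Mrps34 and the dimmer probe set of Mrpl49. At 100 mM they were Mrpl16, Mrpl37, Mrpl43, Mrpl48, Mrpl55, Mrps17, Mrps23 and the dimmer probe set of Mrpl50, and Mrpl18 lost its call. Mrps18a then rose by 0.60 and 0.69, Mrpl12 by 0.47 and 0.35, Mrps15 by 0.49 and 0.45 and Mrpl22 by 0.39 and 0.45 (limma, all called).

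**Figure D2:**
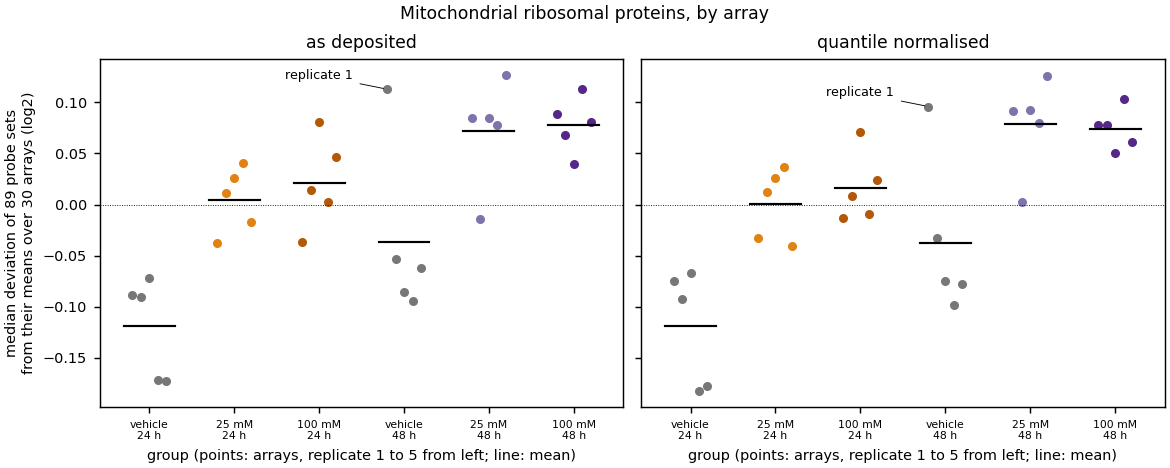
Median over the 89 tested probe sets of the deviation from each probe set's mean over 30 arrays (y, log2), by array and group, as deposited and after quantile normalisation; lines are group means. The 5 vehicle arrays at 24 h all lie below the exposed arrays of that time, and at 48 h replicate 1 of the vehicle lies among the exposed arrays.

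Per array, the members' median deviation lay between -0.173 and -0.072 in the vehicle at 24 h, between -0.038 and 0.041 at 25 mM and between -0.037 and 0.081 at 100 mM. The vehicle arrays did not overlap with either exposed group at that time. At 48 h the vehicle ran from -0.095 to 0.113, 25 mM from -0.014 to 0.127 and 100 mM from 0.04 to 0.113, so that the groups overlapped through replicate 1 of the vehicle. Taken probe set by probe set, every exposed array lay above every vehicle array for 12 members at 25 mM and 20 at 100 mM after 24 h, where 4.76% and 4.94% of all tested probe sets did so. After 48 h the numbers were 5 and 6, against 4.81% of all tested at 25 mM and 4.81% at 100 mM. These last counts are near the background. Without vehicle replicate 1 they were 16 and 25, or 18.0% and 28.1% of the members, where 6.46% and 6.31% of all tested probe sets lay above the 4 remaining vehicle arrays. Leaving out the vehicle array where the members read highest can only keep or raise these counts, so this increase is no separate support.

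Among the large-subunit proteins, Mrps18a moved the most. Despite its name it is one of 3 mammalian versions of bacterial S18 and sits in the large subunit. After 24 h its 5 vehicle arrays read 12.96, 13.02, 12.91, 12.82 and 12.81, those at 25 mM read 13.27, 13.43, 13.31, 13.42 and 13.44, and those at 100 mM read 13.28, 13.29, 13.50, 13.45 and 13.43. Both exposed groups lay above every vehicle array. The differences were 0.47 ± 0.07 (limma, adjusted p = 4.21e-06) and 0.49 ± 0.07 (adjusted p = 2.80e-06), which are folds of 1.39 and 1.40. After 48 h the vehicle arrays read 13.33, 13.10, 13.19, 12.98 and 13.14, against 13.83, 13.70, 13.59, 13.76 and 13.62 at 25 mM and 13.92, 13.92, 13.71, 13.83 and 13.59 at 100 mM. The groups again did not overlap, with differences of 0.55 ± 0.07 (adjusted p = 1.75e-07) and 0.65 ± 0.07 (adjusted p = 9.50e-09), folds of 1.47 and 1.57. After quantile normalisation the 4 differences were 0.46, 0.47, 0.53 and 0.60, all called.

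The other versions of S18 had smaller differences. Mrps18b, a small-subunit protein, rose by 0.28 ± 0.09 at 25 mM and 0.39 ± 0.09 at 100 mM after 24 h and by 0.33 ± 0.09 at 100 mM after 48 h (limma, adjusted p = 0.0237, 0.0017 and 0.00769), and differed by 0.21 ± 0.09 at 25 mM and 48 h (adjusted p = 0.0999). After quantile normalisation only the rise at 100 mM and 24 h was called. Without vehicle 48 h replicate 1, the difference at 25 mM and 48 h was 0.26 and was called (adjusted p = 0.0343). Mrps18c, the version in the usual S18 position, was called through neither of its probe sets as deposited, with differences from 0.14 to 0.26 for the brighter one and from 0.13 to 0.23 for the dimmer one. After quantile normalisation the dimmer one was called in 3 comparisons, by 0.28 at 100 mM and 24 h and by 0.26 and 0.28 at 48 h (adjusted p = 0.0421, 0.048 and 0.0379), and the brighter one in none. The brighter one was called at 25 mM and 48 h once vehicle replicate 1 of that time was left out (0.32, adjusted p = 0.0361). That array was chosen by the members' own high values, so the calls made only without it are no separate evidence of a rise.

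Mrpl44, a large-subunit protein with an RNase III-like fold, was the next largest mean change. Its vehicle arrays at 24 h read 11.37, 11.16, 11.32, 11.09 and 11.47, below all those at 25 mM (11.58, 11.70, 11.71, 11.72 and 11.72) and at 100 mM (11.51, 11.60, 11.75, 11.58 and 11.75). It rose by 0.40 ± 0.08 and 0.36 ± 0.08 (limma, adjusted p = 0.00032 and 0.00168). At 48 h the vehicle arrays read 11.61, 11.32, 11.36, 11.65 and 11.55, those at 25 mM 11.78, 11.73, 11.80, 11.80 and 11.76, and those at 100 mM 11.98, 11.83, 11.58, 11.88 and 11.81. At 25 mM the groups did not overlap, while 1 of the 5 arrays at 100 mM fell among the vehicle arrays. The rises were 0.28 ± 0.08 and 0.32 ± 0.08 (adjusted p = 0.0105 and 0.00413). The 25 mM call at 48 h was lost on median centring (adjusted p = 0.0712).

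Mrpl22, which lines the tunnel through which the new chain leaves, was called in all 4 comparisons in both scalings. After 24 h it read 13.51, 13.53, 13.57, 13.38 and 13.33 in the vehicle, 13.59, 13.91, 13.79, 13.83 and 13.67 at 25 mM and 13.79, 13.86, 13.87, 13.84 and 13.62 at 100 mM, with no overlap. After 48 h it read 13.99, 13.51, 13.54, 13.71 and 13.69 in the vehicle, 13.93, 13.89, 14.10, 14.05 and 14.06 at 25 mM and 14.09, 14.28, 13.97, 14.02 and 13.96 at 100 mM, where only vehicle replicate 1 reached into the exposed range. The differences were 0.29, 0.33, 0.32 and 0.38, each ± 0.08 (limma, adjusted p = 0.00821, 0.00299, 0.00301 and 0.000675).

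Mrpl49, a protein found in mitochondrial and not in bacterial ribosomes, showed tight groups at 24 h. The vehicle arrays read 12.20, 12.22, 12.16, 12.19 and 12.10, those at 25 mM 12.52, 12.52, 12.46, 12.52 and 12.42, and those at 100 mM 12.43, 12.48, 12.43, 12.52 and 12.51. Both exposed groups lay above the vehicle, by 0.31 ± 0.06 and 0.30 ± 0.06 (limma, adjusted p = 0.000314 and 0.000643). At 48 h the vehicle spread from 12.05 to 12.45, with replicate 1 at 12.45, and the exposed arrays spread from 12.39 to 12.60 at 25 mM and from 12.30 to 12.51 at 100 mM, so the groups overlapped. The rises there were 0.27 ± 0.06 and 0.22 ± 0.06 (adjusted p = 0.00157 and 0.0108). A second, dimmer probe set of Mrpl49 was called higher in 3 of the 4 comparisons, with differences from 0.20 to 0.35.

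Mrpl35 and Mrpl28, both relatives of bacterial large-subunit proteins, complete the 6 members called in all 4 comparisons both as deposited and after quantile normalisation. Mrpl35 read from 12.51 to 12.69 (median 12.61) in the vehicle at 24 h, from 12.72 to 13.14 at 25 mM and from 12.64 to 13.00 at 100 mM, with overlap at 100 mM alone. Its rises were 0.28, 0.25, 0.28 and 0.33, each ± 0.08 (limma, adjusted p = 0.0159, 0.0381, 0.011 and 0.00321). The call at 25 mM and 48 h was lost on median centring (adjusted p = 0.0548), and that at 100 mM and 24 h in 9 of 20 alternatives, 7 of them leaving out 1 array (adjusted p = 0.121 without exposed replicate 3). At 48 h vehicle replicate 1 read 12.81 while the other 4 vehicle arrays read from 12.51 to 12.58. Mrpl28 rose by 0.28, 0.31, 0.26 and 0.26, each ± 0.07 (adjusted p = 0.00823, 0.00281, 0.00956 and 0.0136). The Mrpl28 groups did not overlap at 100 mM after 24 h and at 25 mM after 48 h.

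Mrpl12 forms the flexible stalk that recruits translation factors, and has been described to bind the mitochondrial RNA polymerase. Its brightest probe set rose in all 4 comparisons, by 0.26, 0.32, 0.38 and 0.25, each ± 0.08 (limma, adjusted p = 0.0275, 0.00634, 0.000865 and 0.0302). After quantile normalisation it was called at 100 mM and 24 h and at 25 mM and 48 h, with adjusted p = 0.0645 and 0.145 in the other comparisons. At 48 h its vehicle arrays read 13.85, 13.50, 13.42, 13.26 and 13.24, and its exposed arrays 13.92, 13.75, 13.91, 13.73 and 13.84 at 25 mM and 13.74, 13.75, 13.63, 13.77 and 13.66 at 100 mM. Vehicle replicate 1 lay above all 5 arrays at 100 mM, and the other 4 lay below every exposed array. The dimmer probe set of Mrpl12 differed by 0.115, -0.124, 0.622 and 0.523 and was called in none of the 4 comparisons. Mrpl10, at the base of the same stalk, differed by 0.12, 0.14, 0.03 and 0.07 and was not called.

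Mrpl42 was called in 3 comparisons in both scalings: by 0.22 ± 0.06 at 100 mM and 24 h, and by 0.24 ± 0.06 and 0.26 ± 0.06 at 48 h (limma, adjusted p = 0.00725, 0.00218 and 0.00166). Its difference at 25 mM and 24 h was 0.14 ± 0.06 (adjusted p = 0.115). Mrpl53 rose in all 4 comparisons as deposited, by 0.20 to 0.23, but after quantile normalisation it was called only at 100 mM and 24 h. Mrpl3, beside the peptidyl transferase centre, rose at 24 h by 0.25 ± 0.06 and 0.33 ± 0.06 (adjusted p = 0.00698 and 0.000469) and differed by 0.09 and 0.07 at 48 h, a change between the times that was not called (adjusted p = 0.693 and 0.566). Mrpl45, which ties the ribosome to the inner membrane, differed by 0.08, 0.13, -0.04 and 0.03, and Mrps30, a large-subunit protein despite its name, by 0.05, 0.04, -0.02 and -0.03; neither was called. Mrpl58, a large-subunit protein of the peptide release factor family, stayed between -0.06 and 0.03 and was not called.

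**Figure D3:**
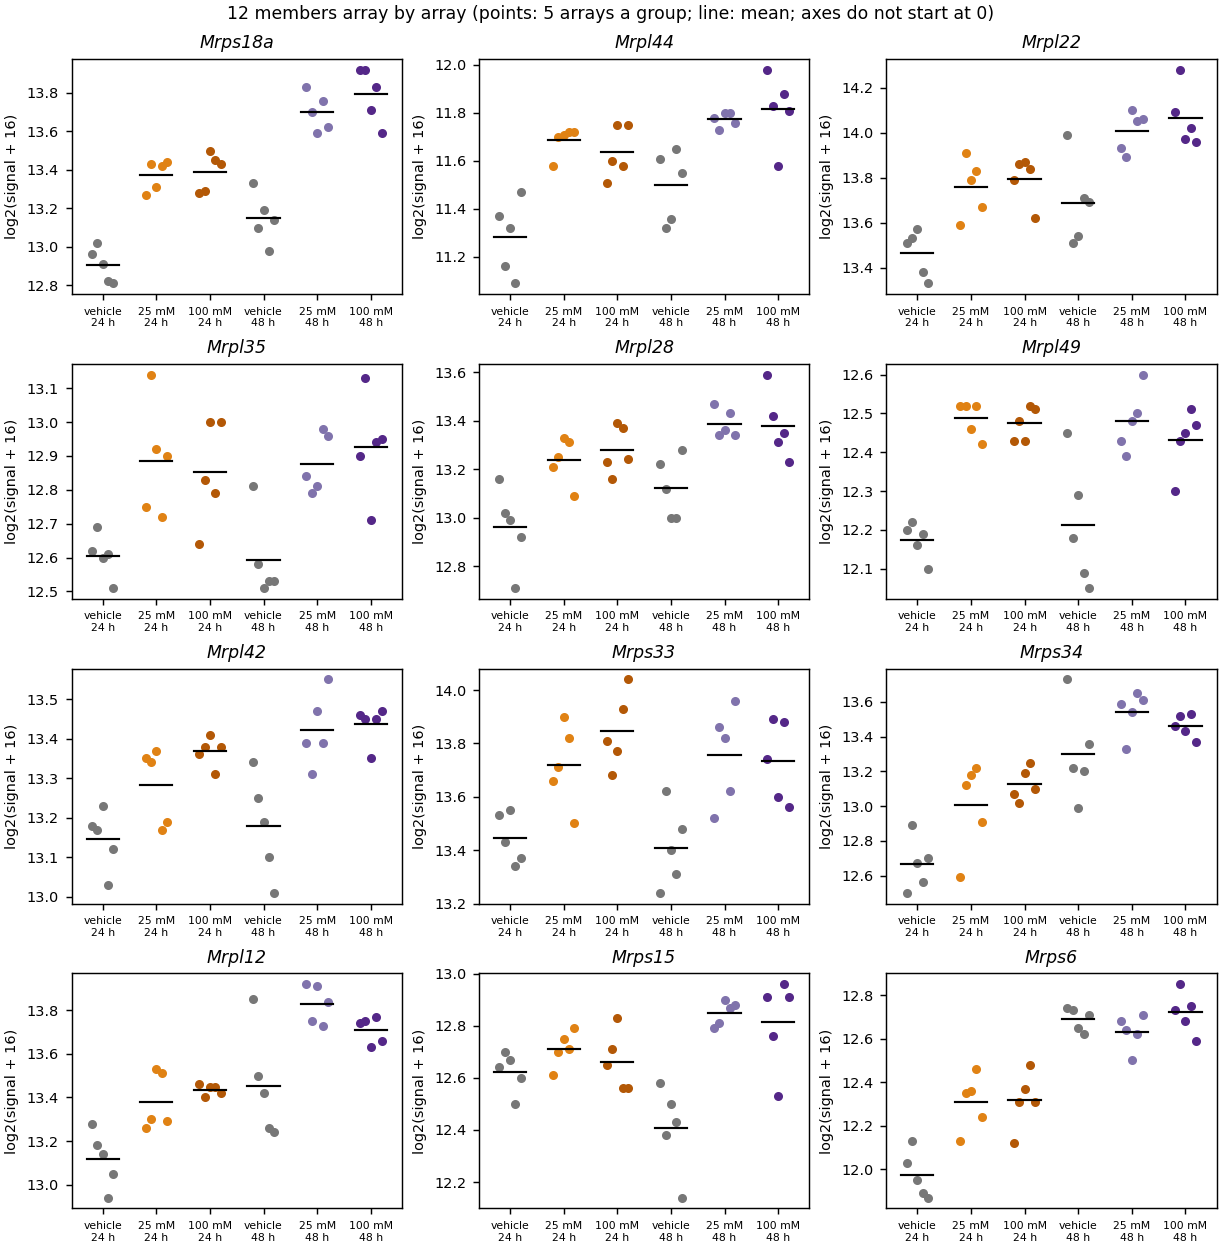
Log2(signal + 16) of 12 members in each of the 30 arrays, by group; points are arrays, lines are group means of 5. In Mrps18a the exposed arrays lie above all vehicle arrays at both times, while in Mrps6 the exposed means stand above the vehicle at 24 h and in Mrps15 at 48 h.

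Among the small-subunit proteins, Mrps33, specific to mitochondria, rose by 0.28, 0.40, 0.35 and 0.32, each ± 0.09 (limma, adjusted p = 0.0301, 0.00141, 0.00422 and 0.00915), of which those at 100 mM and 24 h and at 25 mM and 48 h were called after quantile normalisation. Mrps16, of bacterial descent, rose by 0.18, 0.22, 0.18 and 0.17, each ± 0.05 (adjusted p = 0.0143, 0.00253, 0.00904 and 0.0143), and the rise at 100 mM and 24 h alone was called after quantile normalisation. Mrps7, which binds the small-subunit rRNA, and Mrps12, at the decoding centre, were not called. Their differences ran from 0.00 to 0.09 and from 0.03 to 0.20. Without vehicle 48 h replicate 1, Mrps7 was called at 25 mM and 48 h (0.165, adjusted p = 0.0491). That array was chosen by the members' own high values, so this call is no separate evidence of a rise. Mrps22 rose at 100 mM and 48 h, by 0.26 ± 0.07 (adjusted p = 0.0147), and differed by 0.21, 0.16 and 0.13 in the other comparisons. After quantile normalisation it was called in both comparisons at 24 h as well, with differences of 0.27 and 0.23.

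Mrps6, a relative of bacterial S6, was called higher with DINP at 24 h. The vehicle arrays at 24 h read 12.03, 12.13, 11.95, 11.89 and 11.87, those at 25 mM 12.13, 12.35, 12.36, 12.46 and 12.24, and those at 100 mM 12.12, 12.31, 12.37, 12.48 and 12.31. Vehicle replicate 2 met the lowest exposed arrays, and the others lay below them. The rises were 0.34 ± 0.07 and 0.35 ± 0.07 (limma, adjusted p = 0.000499 and 0.000431). At 48 h the vehicle arrays read 12.74, 12.73, 12.65, 12.62 and 12.71, within the range of the exposed arrays (12.50 to 12.85), with differences of -0.06 ± 0.07 and 0.03 ± 0.07. The vehicle itself had risen by 0.72 ± 0.07 between the times (adjusted p = 3.47e-09). The change of the 25 mM effect from 24 to 48 h was -0.39 ± 0.10 and missed the threshold (adjusted p = 0.0718), and that of the 100 mM effect was -0.31 ± 0.10 (adjusted p = 0.387).

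Mrps15, whose bacterial relative helps assemble the small subunit's platform, was called higher with DINP at 48 h. At 24 h it read from 12.50 to 12.70 in the vehicle, 12.61 to 12.79 at 25 mM and 12.56 to 12.83 at 100 mM, and the groups overlapped, with differences of 0.09 ± 0.07 and 0.04 ± 0.07. At 48 h the vehicle arrays read 12.58, 12.38, 12.50, 12.43 and 12.14, against 12.79, 12.81, 12.90, 12.87 and 12.88 at 25 mM and 12.91, 12.76, 12.53, 12.96 and 12.91 at 100 mM. All 5 arrays at 25 mM and 4 of 5 at 100 mM lay above every vehicle array. The rises were 0.44 ± 0.07 and 0.40 ± 0.07 (limma, adjusted p = 3.69e-05 and 0.000178). The change of the effect between the times was 0.36 ± 0.11 at 25 mM and 0.37 ± 0.11 at 100 mM, and neither passed (adjusted p = 0.218 and 0.344).

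Mrps34, specific to mitochondria, followed the pattern of Mrps6 more loosely. It rose by 0.34 ± 0.10 and 0.46 ± 0.10 at 24 h (limma, adjusted p = 0.0254 and 0.00224) and differed by 0.24 ± 0.10 and 0.16 ± 0.10 at 48 h (adjusted p = 0.116 and 0.35). Its vehicle level rose by 0.64 ± 0.10 between the times (adjusted p = 6.33e-05), and at 48 h vehicle replicate 1, at 13.73, lay above all exposed arrays. Without that array the differences at 48 h were 0.35 ± 0.10, which was called, and 0.27 ± 0.10 (adjusted p = 0.00919 and 0.0593). The array was chosen by the members' own high values, so this call is no separate evidence of a rise.

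The remaining calls were smaller or single. Mrpl52 rose by 0.31 ± 0.10, Mrps23 by 0.25 ± 0.07 and Mrpl4 by 0.19 ± 0.05 at 25 mM and 24 h (limma, adjusted p = 0.0263, 0.00954 and 0.0156). Mrpl15 rose by 0.18 ± 0.05 at both doses of 24 h (adjusted p = 0.0151 and 0.0168), and after quantile normalisation was called at neither. Mrpl36 rose at 48 h by 0.16 ± 0.05 and 0.21 ± 0.05 (adjusted p = 0.0101 and 0.00146; 0.103 at 25 mM on median centring). Mrpl54 rose at 100 mM by 0.23 ± 0.07 after 24 h and 0.26 ± 0.07 after 48 h (adjusted p = 0.0337 and 0.0145). Its call at 24 h was lost in 11 of 20 alternatives, quantile normalisation among them (0.19, adjusted p = 0.075), and that at 48 h was kept there (adjusted p = 0.0418). The rest of the 34 genes, Mrpl17, Mrpl33, Mrpl43, Mrpl18, Mrpl50, Mrpl57, Mrps14, Mrps17, Mrps21 and Mrps28, were called once or, for Mrps21, at both doses of 24 h, with called rises between 0.15 and 0.24. After quantile normalisation only Mrpl57 and Mrps28 of these kept their calls at the same probe sets. The differences of Mrpl18 at 100 mM and 48 h and of Mrps21 at 25 mM and 24 h then fell from 0.16 to 0.08 and from 0.15 to 0.07. The calls of Mrpl18, Mrps17, Mrps21 at 25 mM, Mrps28 and Mrpl50 were lost in 15 of 21, 14 of 21, 13 of 20, 12 of 21 and 11 of 21 alternatives. Quantile normalisation also called members that had not been called as deposited: besides Mrps22 and the dimmer probe set of Mrps18c, these were Mrpl48 at 100 mM at both times (0.31 and 0.34, adjusted p = 0.0484 and 0.0271), Mrpl14 at 100 mM and 24 h (0.24, adjusted p = 0.042) and the dimmer probe set of Mrpl50 at 100 mM and 48 h (0.32, adjusted p = 0.0201). Mrps9 was called at 100 mM and 24 h through its dimmer probe set alone (0.45 ± 0.14, adjusted p = 0.0232; 0.06 for the brighter one). Dimmer probe sets of Mrpl52, Mrps14 and Mrpl57 differed by -0.001, -0.0 and 0.03 in the comparisons where the brighter ones were called. No gene had probe sets called in opposite directions.

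The calls came from both subunits and from proteins of both evolutionary origins. Among the 57 Mrpl probe sets 12, 15, 9 and 14 were called higher, and among the 32 Mrps probe sets 8, 8, 6 and 7. Of 49 probe sets for proteins with bacterial relatives 12, 14, 10 and 11 were called higher, and of 39 for proteins specific to mitochondria 8, 9, 5 and 10. Without vehicle 48 h replicate 1 the counts at 48 h were 14 and 19 for Mrpl, 10 and 9 for Mrps, 14 and 12 for the first of these classes of origin and 10 and 15 for the second. With all arrays the medians were 0.12, 0.14, 0.09 and 0.12 for the first of these classes and 0.11, 0.13, 0.09 and 0.11 for the second. No test between the classes was made, and the probe set of Mrpl55 was in neither.

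No difference between the doses was called. The comparison of 100 with 25 mM called 0 members at 24 h and 0 at 48 h (limma), where 0.0107% and 0.00537% of all tested probe sets were called, and 1 and 2 members had an unadjusted p under 0.05. The difference between doses lay between -0.24 and 0.37 for all members at 24 h and between -0.18 and 0.17 at 48 h, with a median of 0.01 at each time. On median centring the median at 48 h was 0.12, with 85 of 89 members above zero and 20 at an unadjusted p under 0.05, where the median of all tested probe sets was 0.09; 0 were called. The median standard error of 0.08 for a member is as large as many of the shifts themselves, so a difference between doses of that size was not detectable here.

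No change of the effect with time was called either. The test of each dose's effect at 48 h minus that at 24 h called 0 members at 25 mM and 0 at 100 mM (limma), against 0.242% and 0.0644% of all tested probe sets, with 4 and 6 members at an unadjusted p under 0.05. The counts were again 0 and 0 without vehicle 48 h replicate 1. At 25 mM, 10 members (11.2%) were called higher at both times, where 4.24% of all tested probe sets were. These were 50.0% of the members called at 24 h and 66.7% of those at 48 h, against 72.5% and 57.2% over all tested. At 100 mM there were 14 (15.7%, against 4.06% of all tested), which made 60.9% and 66.7%, against 73.3% and 62.7%. The members called at both times numbered 14 and 15 without vehicle 48 h replicate 1. The comparisons at 24 and 48 h share no arrays. Across the 89 probe sets the differences at the 2 times had a Pearson correlation of 0.518 at 25 mM and 0.374 at 100 mM, given as a description, since probe sets are not independent replicates. The 10 genes called in all 4 comparisons, through 11.2% of the probe sets where 3.47% of all tested were, were Mrpl12, Mrpl22, Mrpl28, Mrpl35, Mrpl44, Mrpl49, Mrpl53, Mrps16, Mrps18a and Mrps33. The comparisons at the same time share their vehicle arrays.

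**Figure D4:**
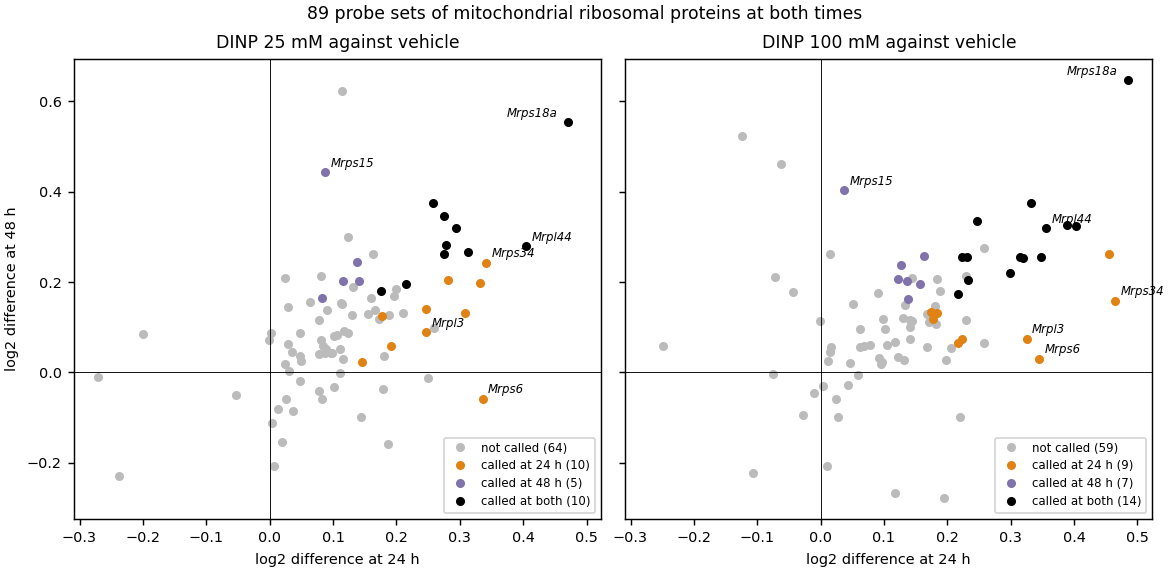
Log2 difference from the vehicle at 48 h (y) against that at 24 h (x) for the 89 tested probe sets, at 25 mM (left) and 100 mM (right), coloured by where they were called. Mrps18a stands at the top right in both panels, Mrps15 high on y alone and Mrps6 high on x alone.

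In the vehicle cultures a few members rose with time in culture alone, and the number rested in part on vehicle 48 h replicate 1. Between 24 and 48 h, 14 members were called higher and 2 lower, against 6.67% and 7.68% of all tested probe sets. After quantile normalisation the counts were 15 and 1, against 7.48% and 8.02%. Besides Mrps6 and Mrps34, Mrpl17 rose by 0.41 ± 0.07, Mrps18b by 0.36 ± 0.09, Mrpl12 by 0.34 ± 0.08 and Mrpl3 by 0.30 ± 0.06 (limma, adjusted p = 0.000114, 0.00337, 0.00366 and 0.0013). Mrps31 fell by 0.49 on the log2 scale and Mrps15 by 0.21 (adjusted p = 0.00287 and 0.0498). Without vehicle 48 h replicate 1 the rises numbered 6 in place of 14, or 6.74% of the members against 5.15% of all tested probe sets, which is near the background. The 6 were Mrps6, Mrps34, Mrpl17, Mrps18b, Mrpl12 and Mrpl3. From 24 to 48 h within the exposed cultures, 8 members (8.99%) rose and 1 (1.12%), Mrps21, fell at 25 mM, where 14.6% of all tested probe sets were called in either direction. At 100 mM the counts were again 8 and 1, the fall being Mrps21, against 8.89%.

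Genes that work with the mitochondrial ribosome did not all follow it. Of 5 further mitochondrial ribosomal proteins without such names, Ptcd3, a small-subunit protein, fell by 0.23 and 0.25 at 24 h (limma, adjusted p = 0.0428 and 0.0265), and Gadd45gip1, a large-subunit protein, rose by 0.20 ± 0.07 at 25 mM and 48 h (adjusted p = 0.0423). Dap3, Chchd1 and Aurkaip1 were not called, with differences between -0.26 and 0.14. Among 16 probe sets of mitochondrial translation factors 1, 1, 1 and 2 were called higher and 1 lower, at 100 mM and 48 h. Tufm, the elongation factor that carries tRNA to the ribosome, rose in all 4 comparisons, by 0.23, 0.21, 0.23 and 0.19, each ± 0.06 (adjusted p = 0.00656, 0.0162, 0.00573 and 0.0269). Its exchange factor Tsfm fell by 0.18 at 100 mM and 48 h (adjusted p = 0.0436), while Gfm1 and Mtif2, an elongation and an initiation factor, were not called. Of 20 probe sets of mitochondrial tRNA synthetases and the related amidotransferase, 1, 1, 1 and 0 were called higher and 0 lower. They were Gatb at 25 mM (0.58 ± 0.17) and Gatc at 100 mM (0.24 ± 0.07) after 24 h, and Sars2 at 25 mM and 48 h (1.01 ± 0.36). Of 24 probe sets of assembly factors 1, 0, 1 and 0 were called higher and 0, 0, 0 and 2 lower. Rbfa rose by 0.28 at 25 mM and 24 h and Mterf4 by 0.24 at 25 mM and 48 h, and Tfb1m and Rpusd4 fell by 0.48 and 0.47 at 100 mM and 48 h. As deposited, at most 5.0% of the synthetases and 4.17% of the assembly factors were called higher. These shares lay below the 5.85%, 5.55%, 7.41% and 6.49% of all tested probe sets. They rest on at most 1 probe set per comparison, and after quantile normalisation the order turned at 25 mM, as given below. For the translation factors the shares were 6.25%, 6.25%, 6.25% and 12.5%.

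Genes for keeping, copying and reading mitochondrial DNA moved in both directions. Of 27 probe sets 3, 3, 6 and 5 were called higher and 1, 2, 1 and 1 lower. Tfam, which packages the DNA and starts its transcription, rose by 0.28, 0.24 and 0.23 (limma, adjusted p = 0.000397, 0.00281 and 0.00382), with 0.14 ± 0.06 at 25 mM and 48 h (adjusted p = 0.0708). Polg, the catalytic subunit of the polymerase, rose by 0.30, 0.31, 0.44 and 0.27, while Polg2, its accessory subunit, fell by 0.58, 0.53, 0.18 and 0.29, all called. Hsd17b10, a subunit of mitochondrial RNase P, rose by 0.39, 0.38, 0.42 and 0.38, Tfb2m, a transcription factor, at 48 h by 0.23 and 0.35, and Lrpprc, which stabilises the mRNAs, at 48 h by 0.24 and 0.20. Polrmt, the RNA polymerase, was not called, and Mterf2 fell by 0.47 at 100 mM and 24 h.

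Of 10 probe sets of regulators of these genes 1, 0, 0 and 0 were called higher and 3, 3, 2 and 2 lower. Ppargc1a, the coactivator of mitochondrial biogenesis, fell by 0.75, 0.54, 0.72 and 0.69 (limma, adjusted p = 5.10e-05, 0.00331, 7.08e-05 and 0.000147), and Myc, a growth regulator, by 0.62, 0.52, 0.66 and 0.71, called each time. Esrra rose by 0.51 at 25 mM and 24 h (adjusted p = 0.00564), Yy1 fell by 0.15 at 100 mM and 24 h (adjusted p = 0.0426), and Gabpa was not called. Nrf1, whose mean of 8.11 is near the dimmest tested mean of 7.956, fell by 1.14 at 25 mM and 24 h (adjusted p = 0.00837) and differed by -0.23, -0.28 and -0.01 elsewhere.

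Of 22 probe sets of the import machinery 4, 3, 3 and 4 were called higher and 0 lower. Grpel1 rose by 0.48, 0.44, 0.42 and 0.46 and Timm50 by 0.40, 0.35, 0.40 and 0.40, and the chaperonin Hspe1 by 0.31, 0.32, 0.27 and 0.29. A list of nuclear genes of the respiratory chain and ATP synthase was drawn by symbol. It holds subunits, some of whose partners the mitochondrial ribosome makes, and also assembly factors such as Ndufaf3. Of its 88 probe sets, 39, 43, 56 and 64 were called higher and 0 lower. Their median differences were 0.15, 0.17, 0.21 and 0.24. After quantile normalisation the counts were 21, 23, 43 and 39 higher and 0 lower, with medians of 0.09, 0.09, 0.13 and 0.14. Ndufs7 rose by 0.38 and 0.39 at 24 h, Ndufb8 by 0.42 at 25 mM and 24 h, Cyc1 by 0.37 at 100 mM and 24 h and Ndufc1 by 0.47 and 0.45 at 48 h. Cytosolic ribosomal proteins were called higher for 2, 3, 4 and 9 of 48 probe sets and lower for 1, 1, 1 and 0, with medians of 0.08, 0.08, 0.05 and 0.10. Among them Rpl18 rose by 0.15 at 25 mM and 24 h and Rpl23 by 0.26 at 100 mM and 48 h. After quantile normalisation 0, 2, 1 and 0 were called higher and 0, 0, 6 and 0 lower, with medians of 0.01, 0.02, -0.03 and -0.004, so that the direction of the medians at 48 h turned and neither of those rises was called.

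Of the accompanying genes named above, Tufm, Tsfm and Rpusd4 at 100 mM and 48 h and Polg2 at 25 mM and 48 h also lost their calls after quantile normalisation (limma, adjusted p = 0.102, 0.107, 0.152 and 0.0516). The synthetases were then called higher for 2, 1, 3 and 1 probe sets, the assembly factors for 2, 1, 3 and 0, and the genes of mitochondrial DNA for 5, 4, 7 and 5. Without vehicle 48 h replicate 1, Sars2 at 25 mM and Tsfm and Rpusd4 at 100 mM lost their calls at 48 h (adjusted p = 0.0973, 0.111 and 0.0671) and Gadd45gip1 gained one at 100 mM (0.27, adjusted p = 0.00175). The respiratory chain counts at 48 h were then 56 and 65.

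**Figure D5:**
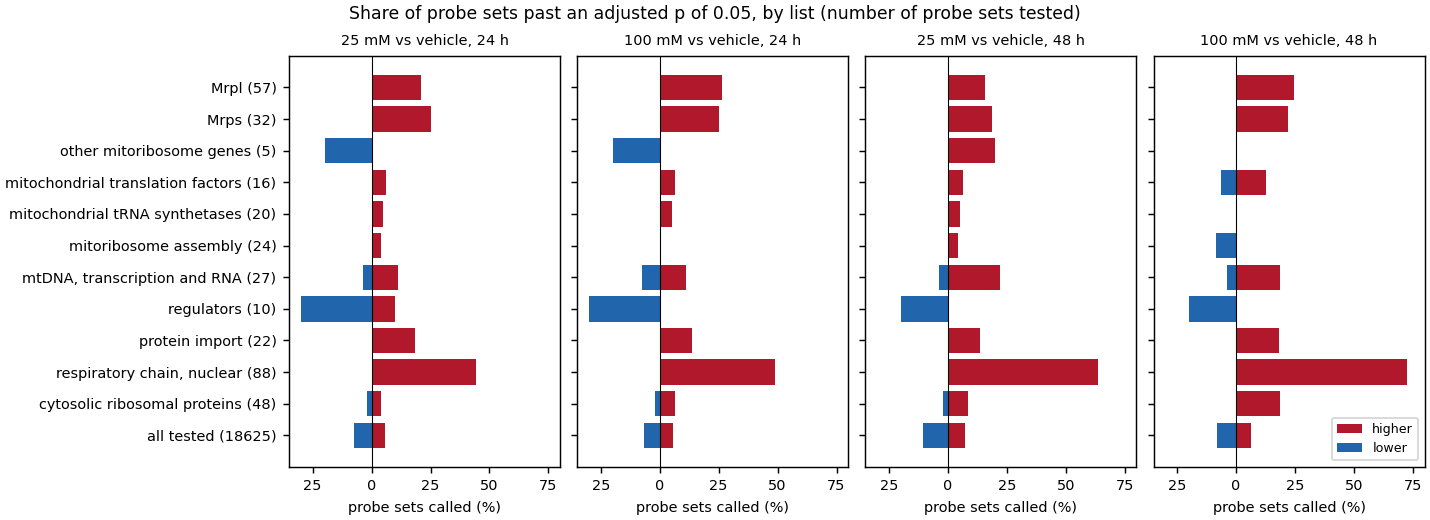
Percent of each list's tested probe sets (number in brackets) called higher (red, to the right) or lower (blue, to the left) in the 4 comparisons with the vehicle; the lowest bar is all 18625 tested probe sets. Mrpl and Mrps bars reach 15.8% to 26.3% with no blue, below the nuclear respiratory chain bars.

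Markers of the labelled cell type were bright. The summed signal of 14 hepatocyte probe sets lay between 686486 and 872398 in all 30 arrays. Single probe sets among them did move. In the 4 comparisons with the vehicle 0, 1, 2 and 0 were called higher. In each, 2 were called lower (14.3%, against 7.49%, 6.74%, 10.5% and 8.07% of all tested). After quantile normalisation 1, 1, 2 and 0 were called higher and 3, 3, 4 and 4 lower. The summed signal of macrophage markers moved with exposure, while the 5 tested probe sets did not move together. Their median differences were -0.07, -0.09, 0.04 and -0.004. In each comparison 1 was called higher, and at 25 mM 1 was called lower at each time. After quantile normalisation 0 were called higher at 100 mM and 24 h. At 24 h the sum of 7 probe sets ranged from 26755.4 to 28108.0 in the vehicle, from 28332.4 to 30790.9 at 25 mM, above every vehicle array, and from 26963.6 to 29193.0 at 100 mM, with overlap. At 48 h it ranged from 27504.0 to 30164.6 in the vehicle, from 30973.7 to 35669.4 at 25 mM and from 32637.5 to 33918.1 at 100 mM. Of the 5 tested, Cd14, which rat hepatocytes can also express, rose by 0.25 and 0.19 at 24 h and by 0.42 and 0.34 at 48 h, Lyz2 fell by 0.18 at 24 h and by 0.23 at 48 h at 25 mM, and Clec4f, the Kupffer cell lectin, was dim (mean 8.7). The sum of 5 cholangiocyte probe sets lay between 11941.2 and 14584.2 in the vehicle at 48 h, between 9060.4 and 11913.5 at 25 mM and between 10671.8 and 12777.3 at 100 mM. Of the 2 tested, Epcam fell by 0.35 and 0.22 at 48 h. The other also lay below zero at 25 mM but above it at 100 mM, where the median of the 2 was 0.05. The part of these cells in the members' values was not tested.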

How the data were processed

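Per the labels, biotin-labelled cRNA from each well was read on 1 rat array. The authors deposited an intensity on a linear scale for each probe set, and per the submitters' processing notes the tool was MAS5. The 2% trimmed mean of the intensities was 1499.93 to 1499.94 on all 30 arrays, so arrays had been scaled to one mean. From these, log2(signal + 16) was computed, which understates changes of dim genes. The 57 control probe sets were dropped, and tests were run on the 18625 of 31042 probe sets whose mean was not below the 40th percentile (dimmest mean 7.956). One limma 3.58.1 fit in R 4.3.3 covered all 6 groups (24 residual degrees of freedom, trended empirical Bayes), with Benjamini-Hochberg adjustment within each comparison and a threshold of 0.05. The number of arrays, 5 a group, limits the precision. The fit was tested on simulated data.

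The text names the up to 8 largest called rises per comparison, members called in both scalings, fixed members and pathway genes, and up to 3 called genes per accompanying list. Genes singled out beyond this were chosen after their values were seen. Members and lists were chosen with earlier results of these data known. The platform's symbols can be old, and probes of related genes can bind each other's transcripts. Replicates are numbered in accession order, which follows the serial numbers in the titles. Arrays with the same replicate number therefore belong to the same round of the groups. The main fit did not use these rounds, and a fit with the round as a block is given below. Promoter windows are RefSeq's (GRCr8).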

Additional observations from a re-analysis of the deposited data

Results flagged for a closer look

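Across 78 sets of 5 arrays (12 members and the members' median, in 6 groups), 4 had 1 array whose gap to its nearest neighbour exceeded 0.71 of the group's range, a limit that chance passes in about 1 of 20 groups. Finding 4 of 78 is thus near what chance alone would give. The median deviation of members on vehicle 48 h replicate 1 was 0.113, above the other 4 arrays at -0.095 to -0.053. On the same array Mrpl35 read 12.81, above 12.51 to 12.58. Mrpl42 read 13.35 on replicate 3 of 100 mM at 48 h, below 13.45 to 13.47. Mrpl44 read 11.58 on replicate 1 of 25 mM at 24 h, below 11.70 to 11.72.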

How the results depend on the processing

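Alternatives changed 1 choice at a time; the brighter filter, and quantile normalisation combined with leaving out vehicle 48 h replicate 1, were chosen after seeing the data. Median centring moved the members' median to 0.1891, 0.2233 and 0.2197 (25 mM at 24 h, 100 mM at 24 h and at 48 h), and the counts called higher to 8 (25 mM, 48 h) and 32 (100 mM, 48 h). With the compared groups alone, 13 members were higher at 100 mM and 48 h, or 14.6% against 5.33% of all tested. Leaving out single arrays gave 11 to 22 higher at 25 mM and 24 h (11 without replicate 4 and 13 without replicate 3 of the exposed group), 13 to 24 at 25 mM and 48 h (24 without vehicle replicate 1), and 14 to 28 at 100 mM and 48 h. Over all tested probe sets the shares called higher were 4.81% to 5.9%, 6.32% to 7.48% and 5.62% to 6.71% in that order. The members' median at 25 mM and 48 h then ran from 0.0771 to 0.1471. At 48 h, 0 to 1 members were called lower at each dose (1 without vehicle replicate 2). Quantile normalisation without vehicle 48 h replicate 1 gave 24 higher at 25 mM and 48 h, against 8.48% of all tested. The brighter filter gave 1 lower there.

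For the vehicle between times, median centring gave 9 higher (10.1%, against 5.15% of all tested) and 1 lower. The compared groups alone gave 7 higher (7.87%, against 5.09%, near the background) and 1 lower. Quantile normalisation, no filter, no trend and rounds of arrays as a block each gave 1 lower. Leaving out arrays gave 6 to 15 higher and 1 to 3 lower, where 4.99% to 7.06% of all tested were higher. There were 6 higher without 48 h replicate 1 and 9 without 24 h replicate 4. The first with quantile normalisation gave 7 (7.87%, against 6.0% of all tested), near the background. The cause of these moves was not tested. The labels give no replicate number that groups share, but the titles number the arrays in 5 successive rounds of the 6 groups. With the round as a block, 19, 24, 14 and 21 members were called higher in the 4 comparisons with the vehicle. In the vehicle between times 13 were. Of all tested probe sets 6.0%, 5.68%, 7.52% and 6.6% were called higher, and 6.82% in the vehicle between times. Of 161 results for named members under 3314 alternatives in all, 0 reversed, 236 lost and 51 gained a call. Differences between the doses called 0 members under both other scalings, and so did changes of the dose effects with time. Those changes also called 0 without vehicle 48 h replicate 1. At 5 arrays a group, shifts of 0.1 on the log2 scale are near the standard error and mostly cannot be called.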
